A study of Mus musculus with 8 samples.

Results

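The S100 proteins and annexins were followed in Tregs, the regulatory subset of CD4 lymphocytes, which carries the transcription factor FoxP3 and holds immunity in check. The 9 genes were S100a4, S100a6, S100a10, S100a11, S100a13, S100a8, S100a9, Anxa1 and Anxa2, out of 19937 genes measured. They were chosen by name with KO minus WT differences of these arrays in view, so that contrast is given for them as a description and supports nothing. Only probe sets annotated to a single symbol were used, and where a gene had several, the one brightest on average across the 8 arrays was taken.

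FoxP3+ Tregs came from Bcl6-/- mice (labelled KO) and from wild-type (WT) mice, and all were stimulated with antibodies to CD3 and CD28 for 16 h. There were 4 KO-labelled and 4 WT arrays, and each group held preparations 1 and 2 with an array A and an array B of each. The labels give no strain, age or sex, name no Cre or promoter, and they leave unstated whether a preparation or a letter stands for its own mouse, pool, culture or RNA extract. The p-values therefore measure only the spread between these arrays, which may be technical, and the small number of arrays limits every value.

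S100 proteins are small calcium-binding proteins of the EF-hand type that form dimers and change the activity of partner proteins when calcium rises. Annexins bind acidic phospholipids of membranes in the presence of calcium and take part in membrane repair, vesicle traffic and the anchoring of actin. S100a10 is unusual in that it no longer responds to calcium and forms a stable complex with Anxa2, while S100a11 binds Anxa1. S100a4, S100a6, S100a10 and S100a11 are commonly found in effector and memory lymphocytes, whereas S100a8 and S100a9 form calprotectin, a major protein of neutrophils and monocytes.

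The 7 S100 members lie in 2 stretches of mouse chromosome 3 in the RefSeq annotation of assembly GRCm38.p6, while Anxa1 lies on chromosome 19 and Anxa2 on chromosome 9. RefSeq promoters of that build were matched by symbol for 8 of the 9 genes, and S100a10 had no entry. The 250 bases before the annotated start are shown for S100a6 and S100a4, which were higher in KO-labelled arrays, for S100a8, which lies in the same stretch and overlapped between the groups, and for S100a11, whose pattern over the arrays was the closest to that of S100a4. Capitals mark TATAAA, the classical core promoter element, and the site of AP-1 factors (TGANTCA), which act downstream of the T cell receptor. All are on the plus strand, at chr3:90612644-90612893 for S100a6, chr3:90603520-90603769 for S100a4, chr3:90668821-90669070 for S100a8 and chr3:93520246-93520495 for S100a11.
S100a6: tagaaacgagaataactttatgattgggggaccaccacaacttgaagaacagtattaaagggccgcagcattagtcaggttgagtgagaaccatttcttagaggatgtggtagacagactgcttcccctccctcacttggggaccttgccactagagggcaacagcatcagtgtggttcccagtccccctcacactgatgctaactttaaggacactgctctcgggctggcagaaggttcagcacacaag
S100a4: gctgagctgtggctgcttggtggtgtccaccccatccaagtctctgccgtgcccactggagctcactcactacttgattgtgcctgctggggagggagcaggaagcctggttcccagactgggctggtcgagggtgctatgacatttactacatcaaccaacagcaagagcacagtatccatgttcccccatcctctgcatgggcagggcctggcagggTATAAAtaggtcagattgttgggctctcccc
S100a8: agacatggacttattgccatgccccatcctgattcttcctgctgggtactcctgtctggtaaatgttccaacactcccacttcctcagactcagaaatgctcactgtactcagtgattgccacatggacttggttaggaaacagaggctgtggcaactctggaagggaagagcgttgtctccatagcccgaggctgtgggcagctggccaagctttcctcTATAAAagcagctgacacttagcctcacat
S100a11: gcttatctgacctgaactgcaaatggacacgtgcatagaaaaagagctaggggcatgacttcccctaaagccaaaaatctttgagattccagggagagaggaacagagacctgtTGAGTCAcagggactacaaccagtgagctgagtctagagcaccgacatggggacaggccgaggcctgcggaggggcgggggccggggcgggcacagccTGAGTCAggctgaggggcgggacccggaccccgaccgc

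S100a4 and S100a8 both have TATAAA, with its first base 31 and 30 bases before the start, although their KO minus WT differences were unlike. TATAAA was found on either strand in 4 of the 8 promoters (S100a4, S100a8, Anxa1 and Anxa2) and in 12.4% of 32851 RefSeq promoters over the same window. TGANTCA was found in S100a11, at 136 and 38 bases before the start, and in Anxa2, against 6.7% of all promoters. GATAA, the core of GATA factor sites, was found in S100a9 and S100a11, against 22.6%. TTCNNNGAA, the palindrome bound by BCL6 and STAT factors, was in 0 of the 8, against 7.0% of all promoters. The motifs were searched on both strands, and TATAAA and GATAA share the letters ATAA. A match is only a match of letters, and its absence says nothing about the factor.

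The arrays differed in spread: the probe sets had an SD in log2 of 1.84 to 1.87 in KO 1, 1.61 to 1.65 in KO 2 and 1.56 to 1.70 in WT. Bcl6, the targeted gene, had a log2 level of 9.0, 8.82, 8.54 and 8.51 under the KO label, against 7.97, 8.36, 8.33 and 7.86 in WT. It was therefore not lower under the KO label, and as the labels do not say which part of the gene was removed, its level does not check them. Uty, Kdm5d and Eif2s3y, which are Y-linked, averaged 4.62 to 4.80 per array under the KO label and 6.94 to 8.30 in WT, so their level ran along with the genotype label, and its part in the results was not tested. All 8 markers of T cells and Tregs were measured. Per array they averaged 10.60 to 11.21 under the KO label and 9.93 to 10.68 in WT. By limma 0 were called, with 3 at an unadjusted p under 0.05, against 6.19% of all genes. Of the 3 with the highest mean, the T cell receptor chains Cd3g and Cd3e differed by 0.26 and 0.17 log2 with overlapping groups, and the inhibitory receptor Ctla4 by 0.93. In 3 of the 8 markers every KO-labelled array exceeded every WT array, against 6.67% of all genes, and in the rest the groups overlapped. The 3 were Il2ra, the high-affinity interleukin receptor chain of Tregs and activated T cells (1.49 log2), Ctla4 and Foxp3 (0.84). All 8 markers had a positive difference, on the same side of WT as the S100 genes described next, and their part in the results was not tested.

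S100a6 had the largest difference of the 9 genes. S100a6 (probe set 10493820) is also known as calcyclin and binds the ubiquitin ligase adaptor Cacybp. Its log2 level was 10.26 and 10.03 in KO 1 and 9.40 and 9.36 in KO 2, against 7.26, 7.55, 7.16 and 6.80 in WT. Every KO-labelled array was far above every WT array, and KO 1 was above KO 2. The means were 9.76 ± 0.45 in KO-labelled and 7.20 ± 0.31 in WT arrays (SD, n = 4 each), a 5.93-fold difference, or 2.57 log2 (SE 0.31). That was 7.73-fold above the WT mean in KO 1 and 4.55-fold in KO 2, and it ranked 9 of 19937 genes. In these bulk samples a larger share of cells with the RNA and more RNA per cell cannot be told apart.

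S100a4, S100a11 and S100a10 formed a second level of difference, at a little over 2-fold in both KO preparations. S100a4 (probe set 10493812), which binds non-muscle myosin and promotes cell motility, was at 7.78, 7.70, 7.70 and 7.97 under the KO label, against 6.57, 6.60, 6.57 and 6.60 in WT. The WT arrays were nearly identical, with an SD of 0.02, and the KO-labelled ones had an SD of 0.13. The WT values lay below the medians of the WT arrays, 6.97 to 7.12. No detection call was used, so S100a4 was not shown to be above background in WT, and its fold is only that of the deposited values. S100a4 was 2.30-fold higher, 1.20 log2 (SE 0.21), with 2.23-fold in KO 1 and 2.38-fold in KO 2. S100a11 (probe set 10457640), a partner of Anxa1 that acts in membrane repair, was at 11.04, 10.98, 11 and 11 under the KO label, against 9.72, 9.88, 9.91 and 9.78 in WT. Here the KO-labelled arrays were the tight group, and the 2 groups were clearly apart. S100a11 was 2.26-fold higher, 1.18 log2 (SE 0.25), with 2.27-fold in KO 1 and 2.25-fold in KO 2. A second probe set annotated to S100a11 (10493990) gave 1.12 log2, with 1.10 in KO 1 and 1.14 in KO 2.

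S100a10 (probe set 10493995), the partner of Anxa2 that carries membrane proteins to the cell surface, was at 12.44, 12.41, 12.29 and 12.32 in the KO-labelled arrays. In the WT arrays it was at 10.82, 11.74, 11.48 and 11.07. The groups did not overlap, but the WT arrays spread over almost a whole log2 unit, in the same order as the SD of those arrays over all probe sets, which was 1.56 in WT 1A, 1.58 in WT 2B, 1.62 in WT 2A and 1.70 in WT 1B; the part of this in the result was not tested. S100a10 was 2.13-fold higher, 1.09 log2 (SE 0.40), with 2.21-fold in KO 1 and 2.04-fold in KO 2. S100a13 (probe set 10493789), which takes part in the export of Fgf1 and Il1a from cells, showed a smaller step. It was at 8.83, 8.74, 8.72 and 8.74 under the KO label, against 8.47, 8.29, 8.38 and 8.29 in WT. Every KO-labelled array exceeded every WT array, by 1.32-fold or 0.40 log2 (SE 0.22), with 1.35-fold in KO 1 and 1.30-fold in KO 2. After quantile normalization S100a13 was at -0.05 log2 from WT in KO 1 and 0.32 in KO 2, so its direction in KO 1 depended on the scaling.

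The myeloid pair S100a8 and S100a9 overlapped between the groups. S100a8 (probe set 10493831) was at 6.77, 6.71, 6.88 and 6.76 under the KO label, against 6.79, 6.26, 6.79 and 7.07 in WT. S100a9 (probe set 10499861) was at 7.09, 6.99, 7.03 and 7.18 under the KO label, against 7.13, 6.54, 7.10 and 7.16 in WT. The groups overlapped for both genes, and WT 1B was the lowest array for each. The differences were 0.05 log2 (SE 0.26, 95% interval -0.52 to 0.61) for S100a8 and 0.09 log2 (SE 0.26, 95% interval -0.48 to 0.65) for S100a9. These intervals stop below the fitted differences of S100a4, S100a6, S100a10 and S100a11. However, the 95% interval of S100a10, 0.225 to 1.952, overlaps both, and that of S100a11, 0.63 to 1.728, overlaps that of S100a9. The intervals of S100a4, 0.756 to 1.649, and S100a6, 1.898 to 3.237, overlap neither. The difference between genes was not tested, since the genes were chosen with this contrast in view.

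**Figure D1:**
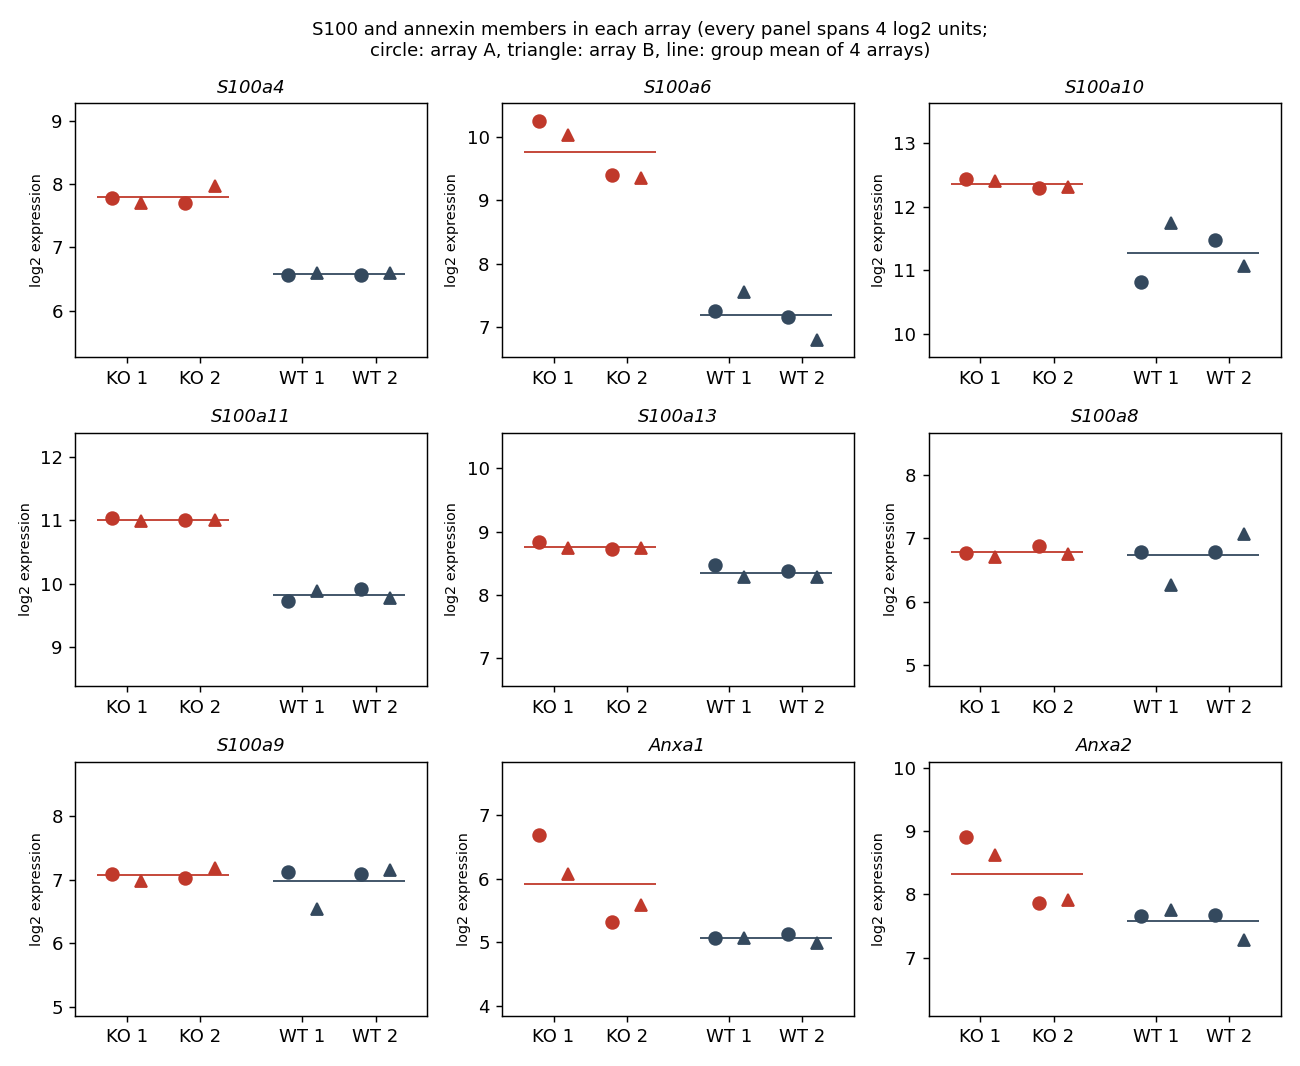
Log2 expression of the 9 genes in each array, with KO-labelled preparations (red) left of WT preparations (dark blue), circles for array A, triangles for array B and lines for group means; each panel spans 4 log2 units. S100a6 sits highest above WT, S100a4, S100a10 and S100a11 are about equally far above WT in KO 1 and KO 2, S100a8 and S100a9 overlap, and Anxa1 and Anxa2 are higher in KO 1 than in KO 2.

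Averaged over the 5 lymphocyte S100 genes, the distance from the WT mean was 1.42 and 1.32 log2 in KO 1 and 1.17 and 1.23 log2 in KO 2. For S100a8 and S100a9 together it was 0.07 and -0.01 in KO 1 and 0.10 and 0.11 in KO 2. S100a6 weighed most in the first mean, at 2.17 to 3.06 log2 per KO-labelled array, and S100a13 least, at 0.36 to 0.47. The mean of the myeloid pair stayed within the range of the WT arrays in each KO-labelled array. Other myeloid genes were also close between the groups. Over 29 measured markers of neutrophils and monocytes the array means were 6.18 to 6.48 in KO-labelled and 6.18 to 6.52 in WT arrays, and limma called 0, with 1 at an unadjusted p under 0.05, against 6.19% of all genes. That was Ngp, a neutrophil granule protein, whose difference was 0.49 log2 (SE 0.22) with overlapping groups. The markers with the highest mean were Cd68, at 7.88 under the KO label and 7.54 in WT, Cd177, at 7.38 and 7.73, and Cebpe, at 7.12 and 7.38. Log2 array values have no zero, so no marker can be called absent. Of those 29, only Lyz2, which encodes a lysozyme, was above WT in all KO-labelled arrays, by 0.35 log2. The median distance of the 29 from WT was -0.23 log2 in KO 1 and 0.05 in KO 2, against -0.13 and 0.02 over all genes. Between the KO preparations limma called 1 higher and 12 lower in KO 1, against 27.7% and 31.0% of all genes. S100a8 and S100a9 did not pass there.

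The annexins were higher mainly in KO 1. Anxa1 (probe set 10466606), an inhibitor of inflammation that is induced by glucocorticoids, was at 6.69 and 6.08 in KO 1 and at 5.32 and 5.58 in KO 2, against 5.07, 5.07, 5.12 and 4.99 in WT. Anxa2 (probe set 10586744), which organises membrane and actin with S100a10, was at 8.90 and 8.62 in KO 1 and at 7.86 and 7.92 in KO 2, against 7.66, 7.75, 7.67 and 7.28 in WT. Neither gene overlapped between the groups, but KO 2 lay close to the WT arrays. Anxa1 was 2.50-fold above the WT mean in KO 1 and 1.31-fold in KO 2, with a group difference of 0.86 log2 (SE 0.30). No detection call was used, so Anxa1 was not shown to be above background in WT, and its fold is only that of the deposited values. Anxa2 was 2.25-fold above it in KO 1 and 1.23-fold in KO 2, with a group difference of 0.73 log2 (SE 0.30).

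In 7 of the 9 genes every KO-labelled array exceeded every WT array, and in 0 all were below, against 6.67% and 2.11% of all genes. With limma and Benjamini-Hochberg adjustment over all 19937 genes at an adjusted p under 0.05, S100a6 (adjusted p = 0.00544) and S100a4 (adjusted p = 0.0477) were called higher, 2 of 9 genes, against 0.120% of all genes. As these genes were chosen with this contrast in view, nothing is read from either count. The median difference was 0.86 log2 over the 9 genes and -0.06 over all genes. An unadjusted p under 0.05, in either direction, was found for 1235 of all genes (6.19%). The S100a4 call held in 15 of the 23 alternatives run and was lost in 8. Its adjusted p was 0.0767 without KO 1B, 0.193 without WT 1A, 0.086 without WT 1B, 0.156 without WT 2A and 0.140 without WT 2B, although its difference stayed between 1.20 and 1.23 log2 in these fits. The adjusted p of S100a4 was also 0.973 without both WT 1 arrays, 0.999 without both WT 2 arrays and 0.137 on preparation means. Among the alternatives run, the S100a6 call was lost only without both WT 2 arrays (adjusted p = 0.61), a fit in which limma called 0 genes higher or lower, with 200 at an unadjusted p under 0.05.

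The comparison of the KO preparations with each other is a different contrast and asked which of the genes differ between KO 1 and KO 2. Whether it is independent of how the genes were chosen was not tested. Its test takes its error from the 2 arrays of each preparation. Of all genes, 27.7% were higher and 31.0% lower in KO 1 than in KO 2 (limma, adjusted p under 0.05), and KO 1 had the widest spread of values. These shares depended on the scaling and on single arrays: 5530 genes were higher and 6184 lower as deposited, 2691 and 1045 after quantile normalization, 7396 and 1654 after median centring, 760 and 108 without KO 1A, and 1639 and 567 without KO 2B. Of the 9 genes, 3 were higher in KO 1, a share near that of all genes, and 0 lower. These were Anxa1, by 0.93 log2 (SE 0.17, adjusted p = 0.00265), Anxa2, by 0.87 (SE 0.18, adjusted p = 0.00397), and S100a6, by 0.76 (SE 0.19, adjusted p = 0.00718). Anxa1 passed in each of the 12 alternatives that held it, whereas after quantile normalization, which gives the arrays the same spread, S100a6 (0.30, adjusted p = 0.277) and Anxa2 (0.49, adjusted p = 0.0756) did not. The S100a6 call was also lost without KO 1A (adjusted p = 0.0845) or KO 2B (adjusted p = 0.0668), and the Anxa2 call without KO 1A (adjusted p = 0.0667).

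The other 6 genes did not pass between the KO preparations. The difference was -0.10 log2 for S100a4 (95% interval -0.43 to 0.24), 0.01 for S100a11 (-0.43 to 0.46) and 0.12 for S100a10 (-0.60 to 0.84). It was 0.05 for S100a13 (-0.30 to 0.40), -0.08 for S100a8 (-0.48 to 0.32) and -0.07 for S100a9 (-0.47 to 0.34). Each interval includes 0, and that of S100a10 is the widest. Between the WT preparations limma called 0 of the 9 genes and 0% of all genes, with 210 genes at an unadjusted p under 0.05.

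**Figure D2:**
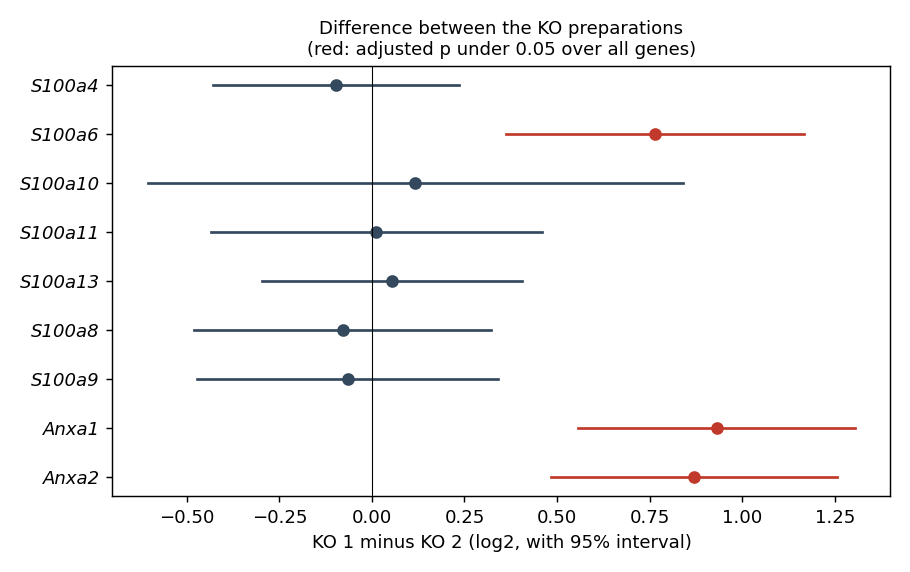
KO 1 minus KO 2 for each gene in log2, with 95% intervals of the limma fit; red marks an adjusted p under 0.05 over all genes. The intervals of Anxa1, Anxa2 and S100a6 lie above 0, and those of the other 6 genes include it.

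In the values as deposited, known partners were about equally far from WT in KO 1 and unequally far in KO 2. S100a10 stood 1.15 log2 over the WT mean in KO 1 against 1.03 in KO 2, whereas Anxa2, with which it forms a complex, was 1.17 above in KO 1 and 0.30 in KO 2. S100a11 stood 1.19 log2 over it in KO 1 against 1.17 in KO 2, and Anxa1 1.32 against 0.39. In KO 2 the S100 gene of each couple was farther from WT than the annexin. Whether the genes of a couple differ in this was not tested. After quantile normalization the values were 0.95 in KO 1 and 0.95 in KO 2 for S100a10, 0.82 and 0.33 for Anxa2, 0.77 and 1.04 for S100a11, and 1.59 and 0.37 for Anxa1. With that scaling S100a11 and Anxa1 were thus unlike in KO 1 too, so their likeness there depended on the scaling.

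**Figure D3:**
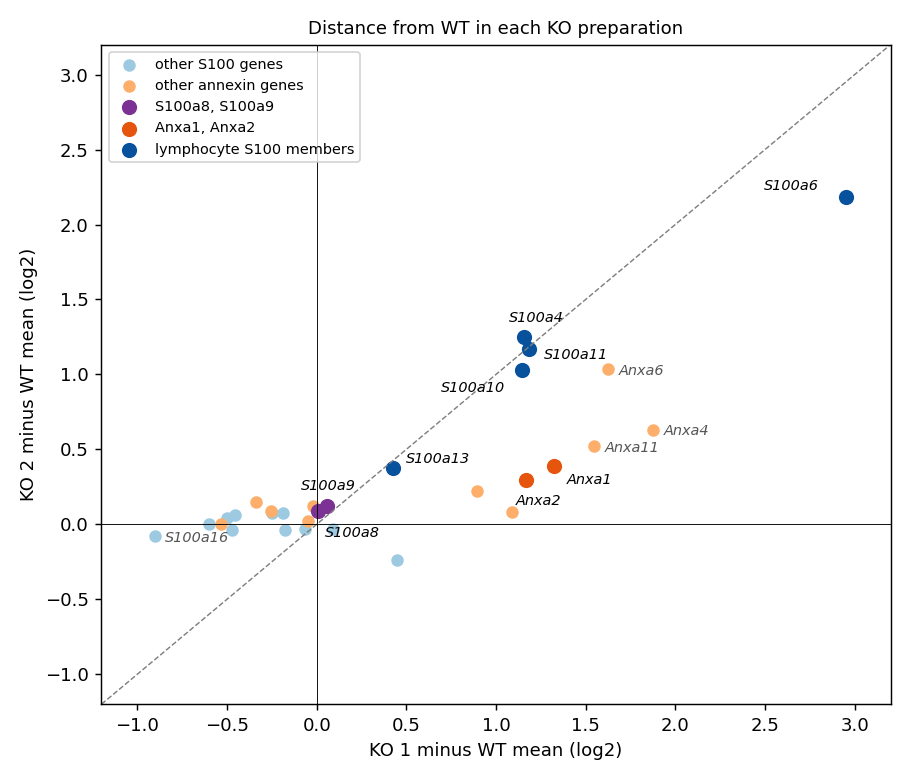
Distance of KO 1 (horizontal) and KO 2 (vertical) from the WT mean in log2, for the 9 genes and for other S100 and annexin genes, S100pbp included; on the dashed line both preparations are equally far from WT. S100a4, S100a10, S100a11 and S100a13 lie near the line, S100a6, Anxa1 and Anxa2 below it, and S100a8 and S100a9 near the origin.

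The other annexins were spread on both sides of 0, with 6 positive and 4 negative KO minus WT differences. Of 10 measured, 0 passed the limma test, with 4 at an unadjusted p under 0.05, against 6.19% of all genes, and their median difference was 0.31 log2, with 0.44 in KO 1 and 0.14 in KO 2. In Anxa6, Anxa4, Anxa11 and Anxa7 every KO-labelled array exceeded every WT array, as in 6.67% of all genes. Anxa6, the annexin with a doubled core, differed by 1.33 log2 (SE 0.34), with 1.62 in KO 1 and 1.03 in KO 2. Anxa4 differed by 1.25 (SE 0.32), with 1.88 and 0.63, and Anxa11 by 1.03 (SE 0.34), with 1.55 and 0.52. Between the KO preparations Anxa4, Anxa11, Anxa5 and Anxa7 were higher in KO 1 and Anxa8, Anxa9 and Anxa10 lower, 4 and 3 of 10. Over all genes 27.7% were higher and 31.0% lower, so nothing particular to annexins is read from these counts. For Anxa5, the annexin used to stain dying cells, KO 1 was 1.09 above WT and KO 2 0.08.

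The other S100 genes lay close to WT or below it. Of 11 measured in this list, which includes the binding protein gene S100pbp, 0 passed the limma test of KO minus WT, with 0 at an unadjusted p under 0.05, and in 0 were the groups apart. Over all genes 0.120% passed as higher and 6.19% had an unadjusted p under 0.05. The groups were apart in 6.67% of all genes with KO above and 2.11% with KO below. For 11 genes, counts of 0 are near these shares, so nothing particular to S100 genes is read from them. The 11 differences ran from -0.49 to 0.10 log2, with a median of -0.11. Averaged over the 11 genes, the level per array was 6.51 to 6.85 under the KO label and 6.75 to 6.91 in WT. No detection call was used, so these genes were not shown to be above background. The largest were those of S100a16 at -0.49 (SE 0.30), S100a7a at -0.30 (SE 0.30) and S100a14 at -0.26 (SE 0.23), members of the family best known from epithelia. Between the KO preparations 6 of the 11 were lower in KO 1 (S100a16, S100a7a, S100a14, S100a2, S100a5 and S100b) and S100pbp was higher. Over all genes 31.0% were lower and 27.7% higher in KO 1, and those shares depended on the scaling.

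S100 genes above WT and S100 genes near WT were interspersed along chromosome 3. In the longer stretch of chromosome 3 the order is S100a1, S100a13, S100a14, S100a16, S100a3, S100a2, S100a4, S100a5, S100a6, S100a7a, S100a8 and S100a9. S100a5 lies between S100a4 and S100a6, which differed by 1.20 and 2.57 log2, and its own difference was -0.20 (SE 0.21). The 7 genes of that stretch outside the 9 differed by -0.49 to 0.03 log2, and in 0 of them were the groups apart. Over all genes the groups were apart in 6.67% with KO above and 2.11% with KO below, so nothing is read from that count. Mean levels of those 7 genes ran from 5.98 (S100a14) to 7.31 (S100a7a) under the KO label and from 6.24 to 7.61 in WT. The array medians were 6.80 to 7.13. No detection call was used, so these genes were not shown to be above background, and a small difference does not show unchanged expression. The 3 genes before S100a1, Ilf2, Snapin and Chtop, differed by 0.40 to 0.47, with overlapping groups. S100a11 and S100a10 are next to each other in the other stretch, at 1.18 and 1.09 log2, while the pairs of genes on either side, Tchh and Tchhl1, Tdpoz2 and Tdpoz1, differed by -0.42 to -0.13. The second probe set annotated to S100a11 gave 1.12. Both were placed here by their symbol, and whether their probes also match a related copy elsewhere was not checked.

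**Figure D4:**
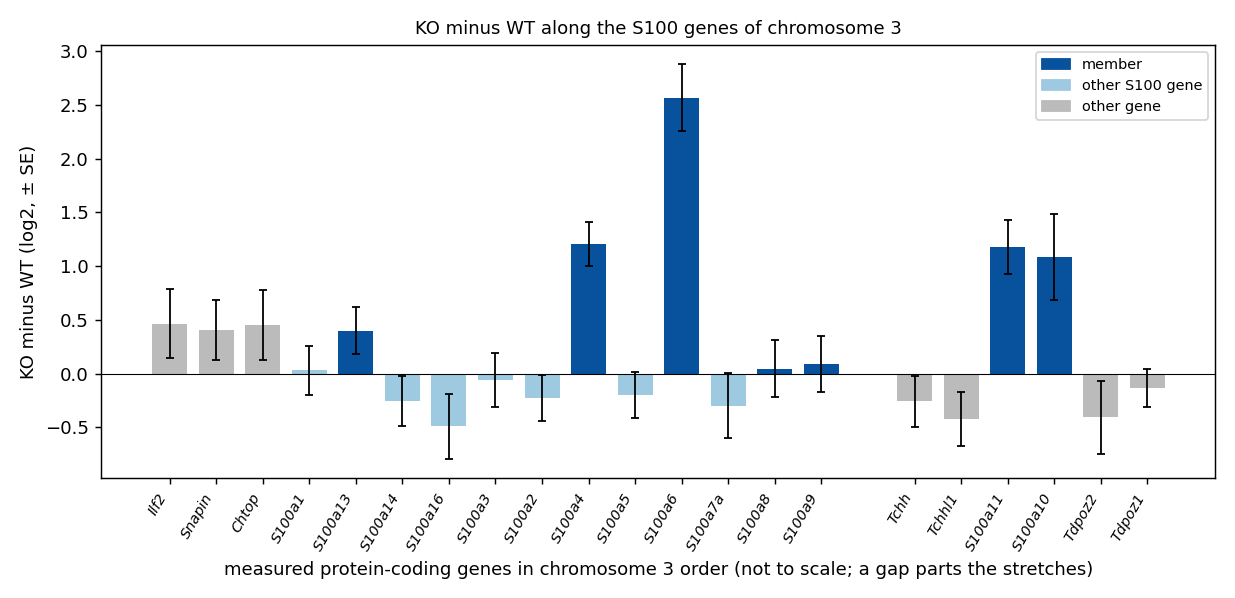
KO minus WT in log2 for measured protein-coding genes in their order on chromosome 3, as bars from 0 with the SE of the limma fit; a gap parts the stretches and distances are not to scale. S100a4 and S100a6 stand on either side of S100a5, which is below 0, and S100a11 and S100a10 stand together between genes below 0.

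Partners and receptors of these proteins were about evenly split, with 12 positive and 13 negative differences. Of 25 measured, 0 passed the limma test, with 3 at an unadjusted p under 0.05, against 6.19% of all genes, and the median was -0.03 log2. Alcam, an adhesion molecule described as a receptor for S100 proteins, had the largest difference, at 0.85 log2 (SE 0.30), followed by the cochaperone Sugt1, a binding partner of S100a6, at 0.78 (SE 0.39) and the phosphatase Ppp5c, bound by several S100 proteins, at 0.75 (SE 0.37). Every KO-labelled array exceeded every WT array in 3 of the 25, and all were below in 1, against 6.67% and 2.11% of all genes. Ahnak, the giant scaffold held by S100a10 and Anxa2, was 1 of those 3, at 0.38 (SE 0.24), with 0.32 in KO 1 and 0.45 in KO 2. Ager and Tlr4, receptors of extracellular S100a8 and S100a9, were at -0.50 (SE 0.27) and 0.14 (SE 0.13). Myh9, the myosin heavy chain bound by S100a4, was at -0.03 (SE 0.30). Of 22 other calcium-binding or calcium-sensing genes 0 passed, with 5 at an unadjusted p under 0.05, against 6.19% of all genes, and a median of 0.63, which was 0.97 in KO 1 and 0.17 in KO 2. The largest of these were the actin-capping protein Capg at 1.58 (SE 0.40), the protease subunit Capn2 at 1.08 (SE 0.37) and the calmodulin gene Calm3 at 0.83 (SE 0.43).

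For 19 actin and membrane genes often found with S100 genes in effector T cells, the median difference was 0.60 log2. Of these, 8 had an unadjusted p under 0.05, against 6.19% of all genes. In 10 every KO-labelled array exceeded every WT array, against 6.67% of all genes. After adjustment 1 passed the limma test as higher, against 0.120% of all genes, and 0 as lower. That gene was Cd44, an adhesion receptor of activated cells, at 1.81 (SE 0.30, limma adjusted p = 0.0328), and this list was drawn up with raised genes of these arrays known. Leaving out KO 1B ended the call (adjusted p = 0.0767), as did leaving out WT 2A (0.10) or WT 2B (0.0981), both WT 1 arrays (0.355) or both WT 2 arrays (0.999), and after median centring of the arrays (0.164). Vim, an intermediate filament protein, was at 2.01 (SE 0.37) and Lgals1, a galectin, at 1.90 (SE 0.35), each with an adjusted p of 0.0676. Vim stood 2.28 over the WT mean in KO 1 against 1.74 in KO 2, a difference between preparations that did not pass (limma adjusted p = 0.105). Lgals1 stood 2.27 over it in KO 1 against 1.53 in KO 2, and was higher in KO 1 (limma adjusted p = 0.0262).

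The genes nearest to each member were sought by the root mean square distance between log2 values over the 8 arrays, after each gene was centred on its mean. For S100a4 the nearest of all genes was S100a11, at 0.0981 log2, and for S100a11 it was S100a4, both followed by the nuclear receptor gene Rora. The nearest to S100a6 were Cd74, the invariant chain of MHC class II, at 0.227, Id2, an inhibitor of E proteins, at 0.240, and Car5b, a mitochondrial carbonic anhydrase, at 0.251. S100a10 was closest to the metabolic enzyme genes Mdh1 (0.103) and Odc1 (0.110). Anxa1 lay close to the cell cycle genes Clspn (0.0941) and Sgo2a (0.0962), after Jpt2 (0.0923), and Anxa2 to Ppp1r11 (0.0691). The nearest to S100a8 was Teddm3 (0.0777). Among the 9 genes themselves, S100a8 and S100a9 were 0.0974 apart and Anxa1 and Anxa2 0.155. All these distances come from the same 8 arrays and describe likeness in them only.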

How the data were processed

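Total RNA (100 ng) of 8 Treg samples was measured on Affymetrix arrays without ribosomal RNA removal, per the labels' protocols. The deposited table holds log2 values for 28768 probe sets; RMA and Partek are named in the submitters' processing notes, with no version given in the sources used here. No further normalization was applied. Of these probe sets, 21771 had 1 gene symbol, and 999 genes had several probe sets, of which the one with the highest mean was used, leaving 19937 genes.

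KO minus WT was fitted with limma 3.58.1 in R 4.3.3, with a variance trend and the preparation as a random block (correlation 0.617). KO 1 minus KO 2 and WT 1 minus WT 2 were fitted with the 4 preparations as groups. P-values were adjusted by Benjamini-Hochberg over all genes, with a threshold of 0.05, and the script was tested on simulated data. Alternatives changed the block, scaling, level filter (mean log2 of 6 or more), variance trend, array weights, spread covariate, probe set choice and the arrays used.

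The members and lists were chosen with earlier results of these data known. From each gene list, the genes that passed and the 3 with the largest difference are named, from the 2 marker lists described (T cells and Tregs, neutrophils and monocytes) the 3 with the highest mean, and for 7 members up to 3 nearest genes. Genes named beyond this (Ahnak, Ager, Tlr4, Myh9, Anxa5, Anxa7, S100a5, Lyz2, Ngp, Il2ra, Foxp3 and neighbours or preparation calls) were picked for their role, position or value after their values were seen.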

Additional observations from a re-analysis of the deposited data

Results flagged for a closer look

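S100a9 in WT 1B stood apart from the other WT arrays. Its log2 level was 6.54 there, against 7.13, 7.10 and 7.16 in WT 1A, WT 2A and WT 2B, and the gap to the nearest array was 0.903 of the group's range, above Dixon's 95% critical value. It was 1 of 50 checks of a group of 4 arrays, over 25 genes, and chance alone would pass about 5% of them. Without WT 1B the KO minus WT difference of S100a9 was -0.06 log2, against 0.09 with it.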

How the results depend on the processing

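The KO minus WT differences of the 7 genes other than S100a8 and S100a9 kept their direction under each alternative run, but how many passed varied. It was 2 of 9 as reported, 6 with the number 1 or 2 as a fixed replicate block, 1 on preparation means, 5 with the spread of each array as a covariate and 1 to 2 when leaving out single arrays. It was 6 without KO 1, 7 without KO 2, 1 without WT 1 and 0 without WT 2. The block correlation was -0.629 and -0.642 without KO 1 and KO 2, and 0.875 and 0.752 without WT 1 and WT 2, each leaving an arm of 1 preparation. Deviations of same-numbered arrays correlated at -0.691 (1A), 0.771 (1B), -0.42 (2A) and 0.682 (2B), and those of preparation means at 0.416. The labels do not say that a number or letter stands for the same thing in both groups. These values therefore cannot decide whether the numbers pair the samples, and the main fit used no pairing. With the number as a fixed block, 620 of all genes were called higher and 57 lower. S100a8 and S100a9 turned to -0.075 and -0.044 with array weights and to -0.156 and -0.059 without WT 1, and ranged from -0.089 to 0.163 and from -0.057 to 0.222 when leaving out single arrays. For KO 1 minus KO 2, 3 members passed as reported, 1 after quantile normalization and 1 to 3 when leaving out single arrays. Quantile normalization turned S100a11 (-0.273), S100a13 (-0.377), S100a8 (0.23) and S100a9 (0.162). Median centring turned S100a4 (0.183), S100a8 (0.202) and S100a9 (0.215). The other probe set turned S100a11 (-0.032), and leaving out single arrays gave -0.021 to 0.045 for S100a11, -0.235 to 0.041 for S100a4 and -0.140 to 0.009 for S100a9. The causes were not tested. Over all genes, KO minus WT called 24 higher and 3 lower, with ranges of 0 to 7234 and 0 to 9666 (both maxima without KO 2), and KO 1 minus KO 2 called 760 to 7396 higher and 108 to 8218 lower.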
